A study of Mus musculus with 36 samples.

Results

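The transcription factor p53, encoded by Trp53, and 9 of its best known target genes were followed in mouse embryonic stem cells (mESCs). The genes were taken by symbol from the table of gene counts. They were Trp53, Mdm2, Cdkn1a, Btg2, Aen, Ccng1, Trp53cor1, Phlda3, Sesn1 and Bbc3. These are 10 of the 54842 genes in the table. Each symbol matched 1 row, and all 10 were among the 18193 genes with enough counts to be tested. All 10 were chosen with earlier results of these data known, so their numbers of calls are not independent support.

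The study asked whether LiTEC, a light-responsive construct for targeting proteins to condensates, alters transcription. Cells transfected with LiTEC were set beside wild-type (WT) cells, either after 30 min of blue light or with no light, and RNA was taken 0, 1 or 4 h later. This gives 12 groups of 3 libraries: WT dark and WT lit at 0, 1 and 4 h, and LiTEC dark and LiTEC lit at the same times. Every culture, WT included, had received doxycycline at 2 µg/ml for 2 days and grew without serum in 2i medium, which holds MEK and GSK3β inhibitors, with LIF. Replicate 1 of each group belongs to batch 1, and replicates 2 and 3 belong to batch 2. The labels do not say whether the LiTEC cells are 1 clone, nor how independent the replicates of a group are. A p-value therefore speaks of the variation among these libraries only, which can be technical.

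Cells normally keep p53 protein scarce because the ubiquitin ligase Mdm2, itself made from a p53 target gene, marks it for destruction. DNA damage, oxidative stress or faulty ribosome assembly free p53, which then binds DNA and raises genes that halt the cell cycle, aid repair or start apoptosis. The protein is controlled largely after translation, so the Trp53 mRNA is no measure of its activity, while the target mRNAs are often read in its place. Mouse embryonic stem cells have a short G1 phase and are known to hold abundant p53.

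Binding sites of p53 consist of a pair of adjacent half-sites of 10 bases, each with a fixed C and a fixed G at its core. The search used the p53 consensus on both strands, with those 4 core bases kept, in RefSeq promoter windows of GRCm38.p6. Each window holds 250 bases before and 50 bases after an annotated start. Windows were found for 9 of the 10 genes, 14 windows in all, and none for Trp53cor1. The following 6 sequences are shown because each held a full 20-base match with at most 3 mismatches. Capitals mark the match and lower case marks 5 flanking bases on each side.
Cdkn1a: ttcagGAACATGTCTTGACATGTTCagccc
Ccng1: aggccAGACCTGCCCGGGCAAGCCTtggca
Trp53: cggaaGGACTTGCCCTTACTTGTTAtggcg
Bbc3: cccgaCTGCAAGCCCCGACTTGTCCccagc
Aen: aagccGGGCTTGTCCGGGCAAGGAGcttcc
Sesn1: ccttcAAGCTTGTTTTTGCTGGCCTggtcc

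The Cdkn1a stretch lies at chr17:29090923-29090952 on the plus strand, and its match begins 51 bases before the start of transcription. The Ccng1 stretch lies at chr11:40755457-40755486 on the minus strand, with the match beginning 195 bases before the start. Each of these has 1 mismatch to the consensus, and a match that close was present in 0.067% of all 32851 windows. The Trp53 stretch (chr11:69580279-69580308, plus strand, 75 bases before the start), the Bbc3 stretch (chr7:16309481-16309510, plus strand, 97 bases before) have 3 mismatches, as do the stretches of Aen and Sesn1. The Aen stretch (chr7:78895932-78895961, plus strand) begins 121 bases before the downstream of 2 annotated starts and 10 bases after the upstream one. The Sesn1 stretch (chr10:41887261-41887290, plus strand) begins 173 bases before its downstream start. At most 3 mismatches were found in 1.38% of all windows. The best match in the windows of Btg2, Phlda3 and Mdm2 had 7, 5 and 9 mismatches, which says nothing of sites elsewhere in these genes. These matches describe the letters and are not binding data.

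Total counts ran from 11132970 to 21842256 per library, and the ribosomal RNA loci Gm26917 and Gm42418 took between 9.24% and 29.3% of them. The highest share was in WT dark 4 h replicate 3, and the next highest was 18.2%. The stem cell markers Pou5f1, Nanog, Sox2, Zfp42, Esrrb and Klf4 were present in every library, with a summed level of 1888 to 2484 CPM (counts scaled to a library of 1000000). Markers of fibroblasts, which are used as feeder cells, summed to 2.12 to 9.98 CPM. Among these, Dcn and Lum were at 0 in 33 and 34 of the 36 libraries, Postn in 21, Col3a1 in 7 and Col1a2 in 6. Col1a1 (median 2.09 CPM) and Thy1 (median 2.33 CPM) were at 0 in no library. In such bulk libraries, fewer cells that express a gene and less RNA per cell cannot be told apart.

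Levels of the 10 genes spanned a wide range and were ordered by CPM per kilobase of exon. Trp53 (chr11, 69580359 to 69591873, plus strand, GRCm38) stood highest, at 296 ± 25.8 CPM (SD, n = 36 over all groups) or 73.3 CPM per kilobase. Next came Ccng1 (chr11, 40748552 to 40755311, minus strand), which encodes cyclin G1, a partner of a phosphatase that acts on Mdm2, at 205 ± 23.9 CPM or 58.3 per kilobase. Mdm2 (chr10, 117688875 to 117710758, minus strand) had 125 ± 17.4 CPM or 24.5 per kilobase. Thus the 3 genes of p53 itself and its feedback control led the order.

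Cdkn1a (chr17, 29090976 to 29100727, plus strand) encodes p21, the inhibitor of cyclin-dependent kinases, and had 70.1 ± 24.6 CPM or 19.7 per kilobase. Phlda3 (chr1, 135766119 to 135769136, plus strand), whose product competes with AKT for membrane lipids, had 30.3 ± 6.52 CPM or 19.4 per kilobase. Aen (chr7, 78895854 to 78911209, plus strand) encodes a nuclease linked to apoptosis and had 95.6 ± 12.4 CPM or 16.5 per kilobase. Per unit of length these 3 lay close together: Cdkn1a exceeded Phlda3 in only 21 of 36 libraries, Phlda3 exceeded Aen in 25, and Mdm2 exceeded Cdkn1a in 25.

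Btg2 (chr1, 134075170 to 134079120, minus strand), an antiproliferative partner of the mRNA deadenylation machinery, had 28.9 ± 8.999 CPM or 10.5 per kilobase. Bbc3 (chr7, 16308393 to 16318205, plus strand) encodes the apoptosis activator PUMA and had 17.2 ± 4.31 CPM or 8.09 per kilobase. Sesn1 (chr10, 41809935 to 41908424, plus strand) encodes sestrin 1, which restrains mTORC1, and had 17.6 ± 4.09 CPM or 4.42 per kilobase. The long noncoding RNA Trp53cor1, also called lincRNA-p21, was lowest at 6.11 ± 2.86 CPM or 1.64 per kilobase, with 37 to 215 counts per library. Its gene (chr17, 29057430 to 29079179, minus strand) begins 11796 bases from the start of Cdkn1a and is read in the opposite direction. On the opposite strand it overlaps AC167363.1, which had 1.499 CPM, and because the strand setting of the counting is not given, reads of the pair may be mixed. Sesn1 likewise overlaps 9930024M15Rik on the same strand (2.98 CPM). Sesn1 exceeded Trp53cor1, and Bbc3 exceeded Sesn1, in all 36 libraries per unit of length.

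**Figure D1:**
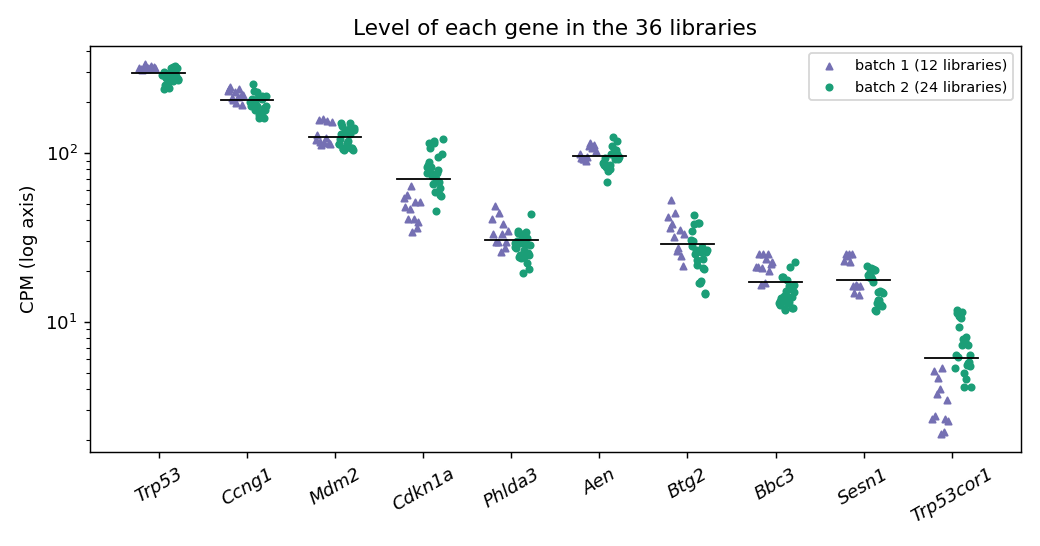
CPM on a log axis in each of the 36 libraries, with genes ordered by mean CPM per kilobase, triangles for batch 1, circles for batch 2, sideways spread for legibility and a line at the mean. Cdkn1a and Trp53cor1 lie mostly higher in batch 2, and the other genes lie lower or mixed.

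Variation across the 12 groups was smallest for Trp53, whose group means differed by at most 0.17 on the log2 scale, from 279 CPM in LiTEC dark cells at 4 h to 313 CPM in WT dark cells at 0 h. Btg2 varied most, by 1.40, from 16.9 CPM (WT dark, 1 h) to 44.4 CPM (LiTEC lit, 4 h). Trp53cor1 followed with 1.28 and Cdkn1a with 1.08. The other 6 targets had ranges of 0.48 to 0.73. The mRNA of p53 was thus nearly level over the groups, and its targets were not.

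At 0 h, immediately after the light, Trp53cor1 was the only one of the 10 called, and it was lower in lit cells. WT dark libraries held 2.64, 7.31 and 5.68 CPM (replicates 1, 2 and 3) and WT lit libraries 2.17, 4.99 and 4.10. LiTEC dark libraries held 3.74, 10.8 and 10.7 CPM and LiTEC lit libraries 2.65, 5.33 and 6.37. Replicate 1 was lowest in each group and the lit and dark ranges overlapped, yet each lit library was below the dark library of the same number, in 6 of 6 pairs. The share of all genes with 6 of 6 pairs in the same direction is not given, here or below, so such counts lack a background. With batch in the model and both genotypes averaged, Trp53cor1 fell by 0.62 on the log2 scale (SE 0.12, adjusted p 0.00134, edgeR), a fold of 0.650. Within batch 1 it was -0.38 and within batch 2 -0.69. Across all tested genes 5.37% were called in this comparison and 2.61% were called lower.

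Within genotypes at 0 h, the lit minus dark log2 difference of Trp53cor1 was -0.78 ± 0.17 (SE) in LiTEC cells, where edgeR called it (adjusted p 0.0163, against 0.934% of all genes called and 0.533% called lower). That call was lost when LiTEC lit replicate 1 or 2, or LiTEC dark replicate 2 or 3, was left out, with adjusted p up to 0.111 (edgeR). In WT cells the difference was -0.46 ± 0.18, which edgeR did not call (adjusted p 0.197), and no member was called in WT against 2.86% of all genes. Without adjustment, 2 members had p below 0.05 there (edgeR), as did 2491 of all 18193 genes. DESeq2 also called no member. The pooled call held with each of the 12 libraries left out, and was lost with no batch term (adjusted p 0.434, edgeR).

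No protein-coding target was called for light at 0 h. Cdkn1a, its neighbour, differed by -0.03 ± 0.07 over both genotypes, and Mdm2 by 0.06 ± 0.04. Aen was higher in lit cells in 6 of 6 pairs, by 0.14 ± 0.05, with adjusted p 0.135 (edgeR), and was called only when replicate number replaced batch as a block (adjusted p 0.0274, edgeR). The median of the 10 genes was -0.01 and that of all genes was -0.00. Among the stem cell markers, Sox2 (-0.25 ± 0.05) and Zfp42 (-0.13 ± 0.03) were called lower in lit cells at 0 h over both genotypes, and Sox2 (-0.31 ± 0.07) also in WT cells alone. Their part in the Trp53cor1 difference was not tested.

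One hour after light, Mdm2 and Btg2 were higher in lit than in dark cells of both genotypes. Mdm2 stood at 113, 106 and 105 CPM in WT dark libraries and at 123, 117 and 139 CPM in WT lit libraries. In LiTEC cells it stood at 112, 105 and 106 CPM in the dark and at 128, 120 and 129 CPM after light. All 6 lit libraries exceeded all 6 dark libraries, a separation in that direction seen for 0.33% of all genes. The log2 difference was 0.23 ± 0.04 (SE, adjusted p 0.00189, edgeR), which is 1.17-fold, with 0.16 in batch 1 and 0.26 in batch 2.

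Btg2 stood at 21.4, 14.8 and 14.6 CPM in WT dark libraries and at 27.4, 17.5 and 25.9 CPM in WT lit libraries at 1 h. LiTEC libraries held 31.9, 23.1 and 21.7 CPM in the dark and 35.7, 28.0 and 30.2 CPM after light. The ranges overlapped because LiTEC cells and batch 1 were higher throughout, but the lit library was higher in 6 of 6 same-numbered pairs. The difference was 0.40 ± 0.07 (SE, adjusted p 0.00158, edgeR), or 1.32-fold, with 0.26 in batch 1 and 0.45 in batch 2. These 2 of 10 calls, both higher, stand against 1.14% of all genes called at 1 h and 0.676% called higher. Both calls held when any 1 of the 12 libraries was left out. In batch 2 alone the Mdm2 call was lost (adjusted p 0.0803, edgeR), and with no batch term the Btg2 call was lost (adjusted p 0.353, edgeR).

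The remaining genes did not pass the test at 1 h, although most were slightly higher after light. Of the 10 genes, 9 had a positive difference, the median was 0.18 on the log2 scale, and the median of all genes was -0.00. Cdkn1a, Ccng1, Phlda3, Trp53cor1, Aen and Bbc3 were each higher in the lit library in 6 of 6 pairs, a count without a share over all genes beside it. Ccng1 differed by 0.15 ± 0.05 (adjusted p 0.102, edgeR) and passed with the replicate block (adjusted p 0.0481, edgeR) or without WT lit replicate 2 (adjusted p 0.0316, edgeR). Cdkn1a differed by 0.23 ± 0.07 (adjusted p 0.136, edgeR), with 0.05 in batch 1 and 0.31 in batch 2. It passed when no filter on low counts was used (adjusted p 0.0160, edgeR). Phlda3 differed by 0.21 ± 0.09, Bbc3 by 0.12 ± 0.09 and Sesn1 by 0.05 ± 0.06. Trp53 itself differed by -0.01 ± 0.05.

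Tested within one genotype, fewer genes passed at 1 h. Btg2 was called in WT cells (0.49 ± 0.10, adjusted p 0.0236, edgeR, against 0.286% of all genes called and 0.176% called higher). That call was lost without WT lit replicate 1 or 3 or WT dark replicate 2 or 3 (adjusted p up to 0.350, edgeR). In LiTEC cells its difference was 0.30 ± 0.10, and no member was called there, against 0.115% of all genes (edgeR, and 0 members by DESeq2). Unadjusted p was below 0.05 there for 4 members and for 1138 of all 18193 genes (edgeR). Mdm2 differed by 0.23 ± 0.06 in WT and 0.22 ± 0.06 in LiTEC cells. It was called in WT cells only with the replicate block (adjusted p 0.0492, edgeR). These within-genotype values use the same libraries as the pooled ones and are not further evidence.

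**Figure D2:**
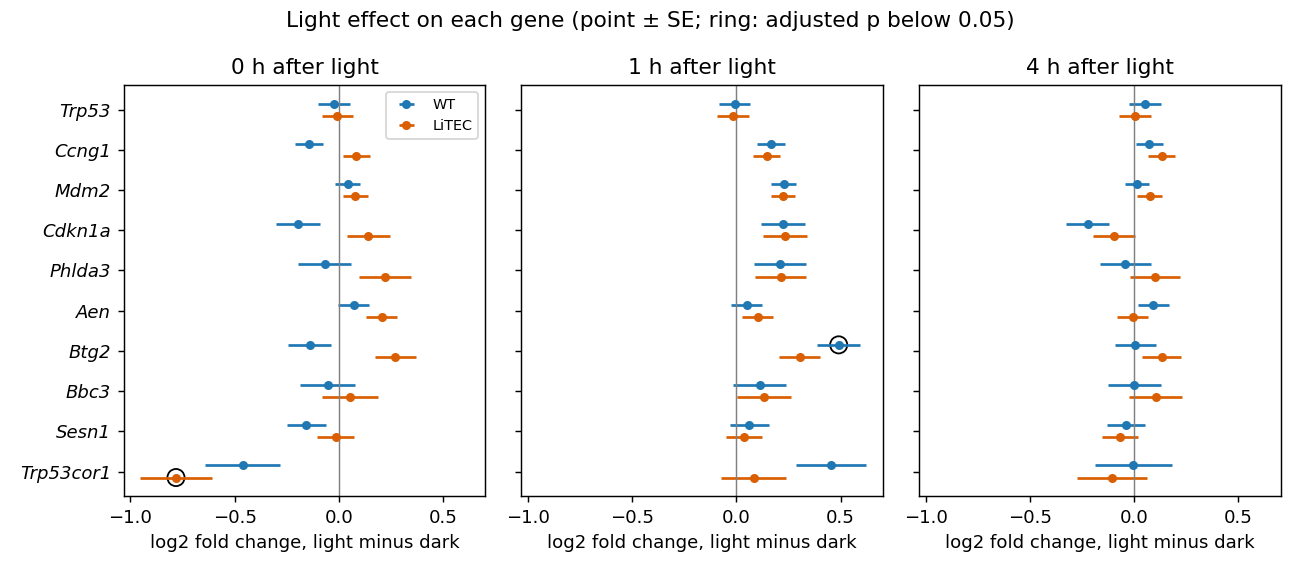
Lit minus dark log2 fold change with its standard error for each gene in WT (blue) and LiTEC (orange) cells at 0, 1 and 4 h, rings marking an adjusted p below 0.05. Trp53cor1 lies left of 0 at 0 h in both genotypes, and Mdm2 and Btg2 lie right of 0 at 1 h in both.

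The light effect on Trp53cor1 itself changed between 0 and 1 h. WT libraries at 1 h held 3.41, 5.78 and 6.37 CPM in the dark and 5.29, 7.67 and 8.09 after light. LiTEC libraries held 4.65, 10.5 and 11.5 CPM in the dark and 5.11, 11.2 and 11.8 after light. All 6 lit libraries were above their dark counterpart, where at 0 h all 6 had been below. In a comparison added after the data were seen, the difference between the 1 h and the 0 h light effect was 0.89 ± 0.17 on the log2 scale (adjusted p 0.00299, edgeR), with 0.75 in batch 1 and 0.91 in batch 2. It was the only member called in this comparison, against 1.14% of all genes called and 0.616% called higher, and the call held without each of the 24 libraries in turn but not with no batch term (adjusted p 0.771, edgeR). The same quantity was 0.33 ± 0.10 for Btg2, which passed only without WT lit 1 h replicate 2 (0.40, adjusted p 0.0273, edgeR), and 0.17 ± 0.06 for Mdm2.

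By 4 h no member was called for light in either genotype or over both, by edgeR or by DESeq2. The backgrounds were 0% in WT, 0.011% in LiTEC and 0.275% over both genotypes. At unadjusted p below 0.05 there was 1 member in WT, 0 in LiTEC and 2 over both. Of all 18193 genes, 1484 had such a p in WT, 1155 in LiTEC and 1948 over both. Mdm2 averaged 147.5 ± 10.1 CPM (SD, n = 6) in lit and 143 ± 10.03 CPM in dark libraries, and Btg2 36.6 ± 10.4 and 34.4 ± 7.19 CPM. Cdkn1a differed by -0.16 ± 0.07 and was lower in lit libraries in 5 of 6 pairs (adjusted p 0.419, edgeR). Without WT dark 4 h replicate 3 it differed by -0.09, and in WT cells by -0.08 where it had been -0.22.

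Whether LiTEC alters the response to light is the question the design addresses, and for these genes the difference of light effects between LiTEC and WT passed at no time. At 0 h 0.022% of all genes were called, and at 1 h and 4 h 0% were. None of the 10 was called by edgeR or DESeq2. Unadjusted p was below 0.05 for 3 members at 0 h and for 0 at 1 and 4 h. Of all 18193 genes, 1129 had such a p at 0 h, 378 at 1 h and 657 at 4 h. The 3 members at 0 h were Btg2, with a difference of 0.41 (95% interval 0.12 to 0.70), Cdkn1a with 0.34 (0.03 to 0.65) and Ccng1 with 0.23 (0.03 to 0.42). The smallest adjusted p among them was 0.680 (edgeR). At 1 h the difference for Mdm2 was -0.00 (95% interval -0.18 to 0.17) and that for Btg2 was -0.19 (-0.48 to 0.11). The interval for Trp53cor1 at 1 h was wider, from -0.85 to 0.10.

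More of the 10 genes passed the test for time than for light, already in cells that saw no light. Between 0 and 4 h in the dark, 6 of 10 genes rose and none fell by the test, against 15.5% of all genes called and 7.82% called higher. Mdm2 rose from a lowest, median and highest level of 105, 107 and 116 CPM at 0 h to 134, 139 and 158 CPM at 4 h (6 libraries each). That is 0.39 ± 0.04 on the log2 scale (adjusted p 1.62e-07, edgeR), or 1.31-fold, beside 1.17-fold for light at 1 h.

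Cdkn1a rose most in the dark. WT libraries went from 35.9, 67.0 and 56.4 CPM at 0 h to 50.9, 97.9 and 120.2 CPM at 4 h, and LiTEC libraries from 40.6, 82.1 and 75.0 to 63.3, 117 and 114 CPM. The batch 1 library was lowest in each group, so the ranges overlapped, while all 6 same-numbered libraries rose. The change was 0.65 ± 0.07 (adjusted p 3.84e-07, edgeR), or 1.57-fold, with 0.57 in batch 1 and 0.69 in batch 2. WT dark 4 h replicate 3, the library with the highest share of ribosomal RNA loci, held the highest Cdkn1a level of all 36. Without it the change was 0.59 for Cdkn1a, 0.33 for Phlda3 and 0.32 for Bbc3, and edgeR still called these 3 genes.

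Btg2, Phlda3, Bbc3 and Ccng1 rose over the same time. Btg2 rose by 0.41 ± 0.07 (adjusted p 0.000117, edgeR), Phlda3 by 0.44 ± 0.09 (adjusted p 0.000790, edgeR) and Bbc3 by 0.41 ± 0.09 (adjusted p 0.00242, edgeR), each in 6 of 6 same-numbered libraries. Ccng1 rose by 0.15 ± 0.05 (adjusted p 0.0249, edgeR), also in 6 of 6. The Ccng1 call was lost without any 1 of LiTEC dark 0 h replicate 2, LiTEC dark 4 h replicate 2, WT dark 0 h replicates 2 and 3, and WT dark 4 h replicate 3 (adjusted p up to 0.0812, edgeR). With no batch term, edgeR kept Mdm2 and Phlda3 only, and adjusted p was 0.0824 for Cdkn1a, 0.0685 for Btg2, 0.196 for Bbc3 and 0.198 for Ccng1.

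Aen (0.03 ± 0.05) and Sesn1 (0.05 ± 0.06) showed no call over the same 4 h. Trp53 was lower at 4 h in 6 of 6 same-numbered dark libraries, by 0.12 ± 0.05 (adjusted p 0.139, edgeR, and 0.0249 with the replicate block). Trp53cor1 had -0.34 ± 0.12 (adjusted p 0.0517, edgeR), just outside the threshold. It passed with the replicate block (adjusted p 0.0306, edgeR), with DESeq2 (adjusted p 0.0492) and without any 1 of LiTEC dark 0 h replicate 1, WT dark 0 h replicate 3 and WT dark 4 h replicates 1 and 2. It also passed with a batch effect in each genotype (adjusted p 0.0398, edgeR) and in batch 2 alone (adjusted p 0.0442, edgeR). Even so, batch 1 gave 0.03 and batch 2 gave -0.46. The median over the 10 genes was 0.27 and over all genes -0.01.

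Lit cells, which share no library with the dark ones, gave the same calls from 0 to 4 h, in a comparison added after the data were seen. Deviations of same-numbered lit and dark libraries were correlated (0.342 to 0.771), so the lit and dark comparisons are not independent. The 6 members called in the dark were the 6 called in the light, against 13.5% of all genes called and 7.04% called higher. In lit cells Cdkn1a rose by 0.52 ± 0.07, Bbc3 by 0.46 ± 0.09, Btg2 by 0.42 ± 0.07, Phlda3 by 0.39 ± 0.09, Mdm2 by 0.37 ± 0.04 and Ccng1 by 0.28 ± 0.05 (adjusted p at most 0.00215, edgeR). The stem cell marker genes Klf4 (0.29 ± 0.07) and Sox2 (0.17 ± 0.05) were called higher over the same lit comparison, and their part in the rise of these 6 genes was not tested. Here the Trp53cor1 value was 0.23 ± 0.13, of the opposite sign to the dark one, and neither was called. The labels do not say what was done to the cultures between 0 and 4 h, and whether time of day or handling moved with time was not tested.

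**Figure D3:**
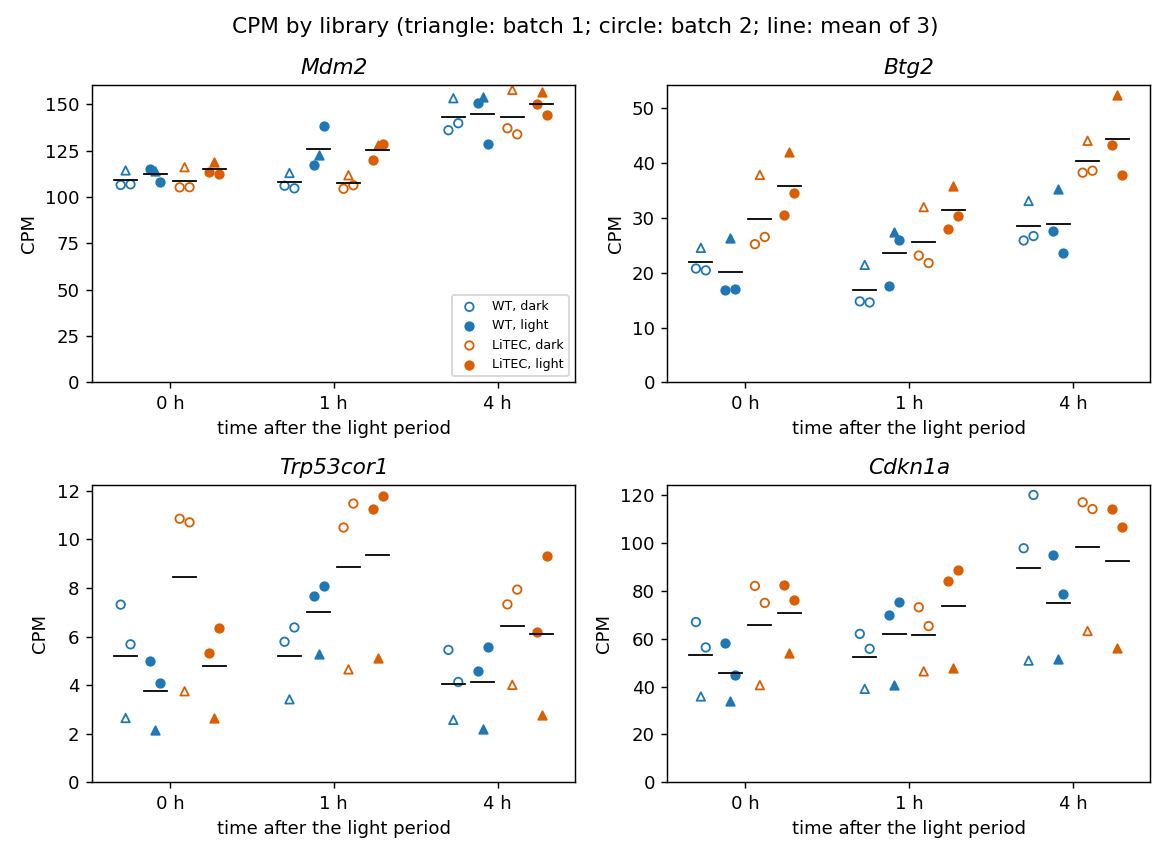
CPM of 4 genes in every library by time, open symbols for dark and filled for lit cultures, blue for WT and orange for LiTEC, triangles for batch 1 and a line at each mean of 3. The Mdm2 group means are highest at 4 h, with lit above dark at 1 h, and Cdkn1a and Trp53cor1 are lowest in the batch 1 library of each group.

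The first hour in the dark differed from the full 4 h. Btg2 fell by 0.30 on the log2 scale (SE 0.07, adjusted p 0.0231, edgeR), the only member called, against 1.31% of all genes called and 0.698% called lower. WT dark libraries went from 24.5, 20.7 and 20.4 CPM to 21.4, 14.8 and 14.6 CPM, and LiTEC dark libraries from 37.8, 25.2 and 26.5 to 31.9, 23.1 and 21.7 CPM, so all 6 were lower. The call was lost without any 1 of LiTEC dark 0 h replicate 1, LiTEC dark 1 h replicates 2 and 3, WT dark 0 h replicate 2 and WT dark 1 h replicate 3 (adjusted p up to 0.0905, edgeR). The same dark 1 h libraries serve as the control of the light effect at 1 h. Over lit libraries Btg2 averaged 27.9 ± 9.90 CPM at 0 h and 27.5 ± 5.98 CPM at 1 h (SD, n = 6), while dark libraries averaged 25.8 ± 6.33 and 21.2 ± 6.39 CPM. Mdm2 averaged 109 ± 4.85 CPM at 0 h and 108 ± 3.70 CPM at 1 h in the dark, and 114 ± 3.55 and 126 ± 7.64 CPM in lit libraries.

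LiTEC and WT cells differed in several of these genes without light, as they did across the transcriptome, where 47.6% of all genes were called. In the dark, 4 of the 10 genes were higher in LiTEC cells and 1 was lower, against 23.9% and 23.7% of all genes. Sesn1 ranged from 12.4 to 16.2 CPM with a median of 14.8 in 9 WT libraries and from 17.2 to 25.2 with a median of 20.4 in 9 LiTEC libraries. Its difference was 0.55 ± 0.05 (adjusted p 1.19e-10, edgeR), or 1.46-fold.

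Btg2 was higher in LiTEC cells by 0.51 ± 0.06 (adjusted p 6.06e-09, edgeR), with a median of 31.9 CPM against 21.4 CPM. Trp53cor1 was higher by 0.69 ± 0.10 (adjusted p 4.60e-07, edgeR), with medians of 7.93 and 5.45 CPM. Cdkn1a was higher by 0.23 ± 0.06 (adjusted p 0.00197, edgeR), a call lost with no batch term (adjusted p 0.383, edgeR) or with a batch effect in each genotype. Aen was lower, at a median of 82.2 CPM against 103 CPM, a difference of -0.30 ± 0.04 (adjusted p 5.59e-07, edgeR). The differences of Mdm2 (-0.00 ± 0.03), Bbc3 (-0.10 ± 0.07), Phlda3 (0.08 ± 0.07), Ccng1 (0.08 ± 0.04) and Trp53 (-0.07 ± 0.04) were not called. Ccng1 passed without LiTEC dark 4 h replicate 1, WT dark 0 h replicate 1 or WT dark 4 h replicate 3, and Phlda3 without the last of these, with edgeR adjusted p of at least 0.0178.

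Markers of other cells moved with genotype too. Summed fibroblast markers ranged from 4.25 to 9.98 CPM in WT dark and from 2.12 to 4.92 CPM in LiTEC dark libraries. Of 7 listed fibroblast genes 4 could be tested, and Col1a1 (-1.499), Col1a2 (-3.10) and Col3a1 (-3.09) were called lower in LiTEC cells. Col1a2 and Col3a1 averaged only 0.362 and 0.312 CPM over all libraries. At such levels they may have passed the count filter through WT libraries alone, so their direction is no independent result. Of the 6 stem cell markers, Klf4 (-0.39), Sox2 (-0.32), Nanog (-0.22), Pou5f1 (-0.20) and Esrrb (-0.16) were lower and Zfp42 (0.30) was higher. Their part in the Sesn1, Btg2, Trp53cor1, Cdkn1a and Aen differences was not tested.

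Cdkn1a and Trp53cor1 also stood out by batch, in the opposite direction to the other 8 genes. Over all groups, Cdkn1a averaged 46.7 ± 8.89 CPM in batch 1 (SD, n = 12) and 81.8 ± 21.3 CPM in batch 2 (n = 24), and Trp53cor1 averaged 3.44 ± 1.12 and 7.45 ± 2.49 CPM. Batch 2 minus batch 1 was 0.79 ± 0.05 for Cdkn1a and 1.11 ± 0.08 for Trp53cor1, which lie side by side on chromosome 17. The other 8 genes were lower in batch 2, from -0.09 ± 0.03 for Mdm2 to -0.54 ± 0.05 for Bbc3. All 10 were called by edgeR (adjusted p at most 0.00323), where 40.5% of all genes were, 20.4% as higher and 20.1% as lower. Because every group has the same batch makeup, comparisons between groups are balanced over it.

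**Figure D4:**
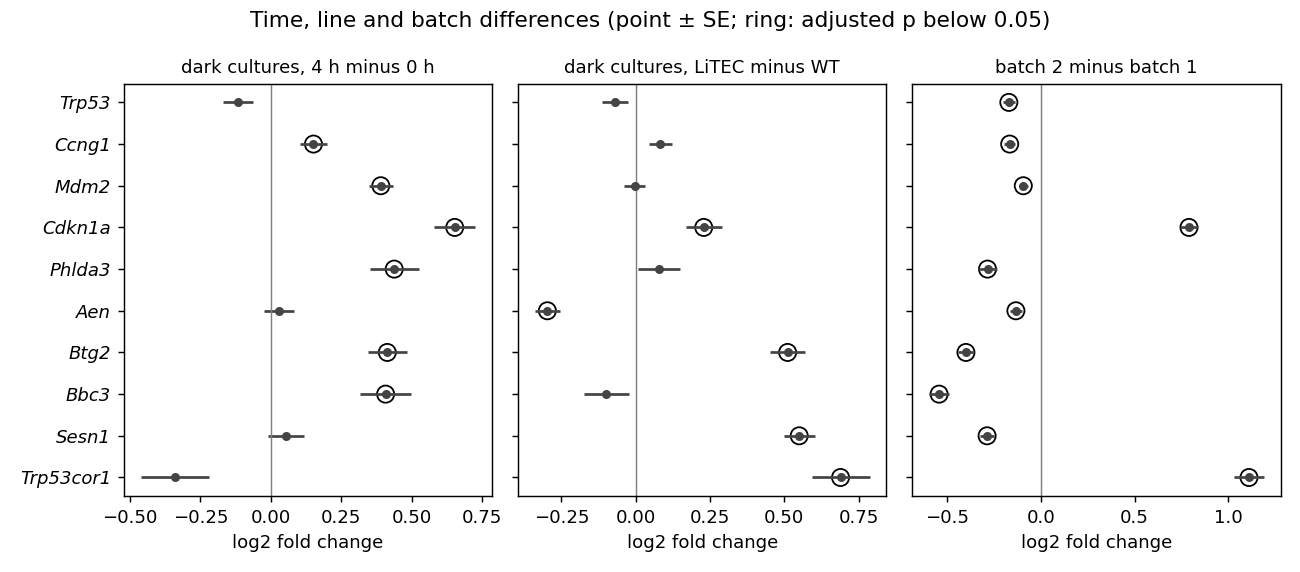
Log2 fold change with its standard error for each gene from 0 to 4 h in the dark, for LiTEC minus WT in the dark and for batch 2 minus batch 1, rings marking an adjusted p below 0.05; the 3 axes differ in range. Cdkn1a and Trp53cor1 lie right of 0 in the batch panel and the other 8 genes lie left of it.

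A wider list of 40 further p53 targets, of which 39 were tested, was read in the same way. This list and those below were also chosen with earlier results of these data known. Their counts beside the shares of all genes are therefore description and not independent support. At 1 h after light over both genotypes, 4 of the 39 were higher and 1 was lower, where 0.676% of all genes were higher and 0.467% lower. The median was 0.05, against -0.00 over all genes. Those higher were Polk, a translesion DNA polymerase (0.32 ± 0.06), Trp53inp1, a stress-induced regulator of p53 (0.26 ± 0.05), Ei24, an endoplasmic reticulum protein (0.22 ± 0.05), and Sesn2, a paralogue of Sesn1 (0.20 ± 0.05). The receptor kinase gene Epha2 was lower (-0.30 ± 0.07). At 0 h Prkab1, an AMPK subunit, was higher (0.19 ± 0.05) and Epha2 was lower (-0.30 ± 0.07). That is 1 of 39 each way, where 2.76% of all genes were higher and 2.61% lower. At 4 h none was called, against 0.275% of all genes. In WT cells alone at 0 h the repair nuclease gene Ercc5 was higher (0.25 ± 0.07) and Epha2 was lower (-0.44 ± 0.09). There 1.66% of all genes were higher and 1.2% lower.

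From 0 to 4 h in the dark, 12 of these 39 rose and 1 fell, where 7.82% of all genes rose and 7.65% fell. The median was 0.14, against -0.01 over all genes. Of 16 genes of arrest and repair 7 rose, among them Polk (0.40 ± 0.06), Plk2 (0.35 ± 0.08), Plk3 (0.33 ± 0.07), Btg1 (0.31 ± 0.06), Sesn2 (0.26 ± 0.05), Zmat3 (0.26 ± 0.05) and Ercc5 (0.25 ± 0.05). Of 12 tested genes of cell death 2 rose, Trp53inp1 (0.39 ± 0.05) and the death receptor gene Tnfrsf10b (0.32 ± 0.06). In the metabolic group of 11, the mTORC1 inhibitor gene Ddit4 (0.88 ± 0.15), the thiamine transporter gene Slc19a2 (0.54 ± 0.07) and Epha2 rose, and the fructose bisphosphatase gene Tigar fell by 0.18 (SE 0.04). From 0 to 4 h in lit cells 18 of the 39 rose and 3 fell, where 7.04% of all genes rose and 6.42% fell, and the median was 0.19. The 12 with the smallest p there were Trp53inp1 (0.47 ± 0.05), Slc19a2 (0.52 ± 0.07), Plk2 (0.51 ± 0.08), Sesn2 (0.30 ± 0.05), Polk (0.34 ± 0.06), Ckap2 (0.23 ± 0.04), Ercc5 (0.28 ± 0.05), Psrc1 (0.29 ± 0.05), Pmaip1 (-0.67 ± 0.13), Zmat3 (0.27 ± 0.05), Epha2 (0.32 ± 0.07) and Bid (0.24 ± 0.05). Pmaip1, the BH3-only death gene, was thus called lower while Bid, of the same class, was called higher. In the first dark hour Polk alone was called, with a fall of 0.34 (SE 0.06), where 0.698% of all genes fell.

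Between LiTEC and WT dark cells these further targets went both ways, 11 of 39 higher and 17 lower, where 23.9% of all genes were higher and 23.7% lower. Pmaip1 was higher by 1.41 ± 0.10 and Apaf1, the apoptosome scaffold, by 0.56 ± 0.04. Dcxr (0.60 ± 0.12) and Ckap2 (0.21 ± 0.03) were also higher. The stress gene Gadd45a had a difference of -0.74 ± 0.07, the adenylate kinase gene Ak1 of -0.43 ± 0.06 and Tigar of -0.42 ± 0.04. Lower as well were Bid (-0.37 ± 0.04), Zmat3 (-0.26 ± 0.04), Psrc1 (-0.24 ± 0.04), Trp53inp1 (-0.23 ± 0.04) and Prkab1 (-0.20 ± 0.04). These 12 had the smallest p of the 28. The median over all 39 was -0.15, against 0.00 over all genes.

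Among 21 listed genes that act on p53, the deacetylase gene Sirt1 was higher in lit cells at 0 h (0.19 ± 0.05), where 5.37% of all genes were called, and none was called at 1 or 4 h. Chek2 had a lower light effect at 1 h than at 0 h (-0.25 ± 0.07), a call that 0.528% of all genes shared. In the dark, Mdm4, the partner of Mdm2, rose by 0.27 ± 0.04 by 4 h, and the kinase gene Hipk2 fell by 0.28 (SE 0.10). That is 1 of 21 each way, where 7.82% of all genes rose and 7.65% fell. Trp53rka was lower by 1 h in the dark (-0.39 ± 0.10), where 0.698% of all genes were lower. In lit cells from 0 to 4 h, Mdm4 rose (0.25 ± 0.04) and Chek1 (-0.23 ± 0.04), Sirt1 (-0.27 ± 0.05) and Trp53rkb (-0.35 ± 0.11) were called lower. There 7.04% of all genes rose and 6.42% fell. Of 6 genes of the nucleolar route to p53, Npm1 (-0.19 ± 0.03) and Rpl23 (-0.20 ± 0.05) were lower at 4 h in the dark, where 7.65% of all genes fell. None of the 6 was called for light. Over both genotypes 5.37%, 1.14% and 0.275% of all genes were called for light at 0, 1 and 4 h. Between lines, 11 of the 21 regulators were called, where 47.6% of all genes were. In LiTEC cells 4 were higher, namely Cdkn2a (0.61 ± 0.11), Ppp1r13b (0.27 ± 0.09), Trp53bp1 (0.16 ± 0.05) and Atr (0.14 ± 0.05). Lower were 7, the checkpoint kinase genes Chek2 (-0.42 ± 0.04) and Chek1 (-0.25 ± 0.03), Wrap53 (-0.29 ± 0.07), Ppm1d (-0.19 ± 0.05), Atm (-0.13 ± 0.04), Cop1 (-0.13 ± 0.03) and Usp7 (-0.12 ± 0.03). Npm1 (-0.18 ± 0.03) and Rpl11 (-0.08 ± 0.03) of the nucleolar group were lower too, where 23.7% of all genes were lower. In the p53 family, Trp63 was higher in LiTEC cells (4.16 ± 0.43) at a mean level of only 0.572 CPM, and Trp73 was not called. At that level Trp63 may have passed the count filter through LiTEC libraries alone, so its direction is no independent result.

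The profiles most like those of the 3 most variable targets were sought among 10527 genes that averaged 5 CPM or more, as the root mean square difference of centred log2 levels over the 12 groups. For Cdkn1a, whose own spread by that measure is 0.32, the nearest gene was Phlda3 (0.12), itself one of the 10, followed by Rhbdf2 (0.13) and Tmem51 (0.14). Nearest to Btg2 (own spread 0.39) were Sertad3 (0.13), Tmem170 (0.16) and Rhbdf1 (0.17). For Trp53cor1 (0.42) they were Platr28 (0.17), Gm40040 (0.18) and Star (0.18), so its neighbour Cdkn1a was not among the 3 nearest.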

How the data were processed

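The deposited table gives raw counts of reads per gene in 36 libraries, as whole numbers. The authors used FastQC, featureCounts and the build mm10 (GRCm38), per the submitters' processing notes. Per the labels' protocols, TRIzol was used for the RNA and a stranded mRNA kit for the libraries. Not given in the sources used here were the aligner, the versions and the strand setting, so counts of overlapping genes are uncertain. No column held other samples. Symbols came from the series' own name map, positions from GENCODE M21 and promoter sequences from RefSeq.

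Genes were kept with edgeR's filterByExpr (minimum count 10) on the 12 groups, and TMM factors were applied. One quasi-likelihood model (edgeR 4.0.16 under R 4.3.3 with limma 3.58.1) held the 12 group means and a batch term over the 36 libraries, with 23 residual degrees of freedom. Benjamini-Hochberg adjustment covered all 18193 genes, and calls needed an adjusted p below 0.05. "Higher", "lower", "rose" and "fell" refer to log2 fold changes; the SE is the fold change divided by the square root of F. CPM refer to a TMM-scaled library of 1000000 counts. The summed and median marker levels and the levels of overlapping genes were instead scaled by total counts without TMM factors. The 95% intervals use the SE and cover the spread between libraries. The fit was also run on simulated counts with no batch shift and no pairing of replicates, so that run does not cover these features.

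There were 18 comparisons, of which 3 were added after the data were seen (the change of the light effect from 0 to 1 h, lit 4 h minus 0 h, and batch). The 10 genes and all other lists were chosen with earlier results of these data known. All 10 are named. Of the other lists, every called gene is named where at most 12 were called, and otherwise the 12 with the smallest p, counting the further targets as a single list and leaving out the batch comparison. Likeness was computed for the 3 members with the largest range of log2 CPM (prior count 2).

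Replicate numbers pair the libraries: deviations from group means correlated above 0.1 in all 18 lit and dark pairs of the same number (0.342 to 0.771). Within batch 2 the replicate 2 minus 3 differences correlated at 0.380 to 0.607 over 6 pairs of groups. The alternatives were no batch term, a replicate block instead of batch, a batch effect in each genotype, batch 2 alone, RLE factors, DESeq2 1.42.0, no filter, the compared groups only, a fit without the loci Gm26917 and Gm42418, and each library left out in turn.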

Additional observations from a re-analysis of the deposited data

How the results depend on the processing

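Over 180 values (10 genes in 18 comparisons), 3790 alternative values were computed. No called value changed sign, 3727 values kept their side of the threshold, 43 calls were lost and 20 were gained. Where neither value was called, the sign differed 167 times. With no batch term, the number of the 10 genes called became 0 for light in WT at 1 h, in LiTEC at 0 h and in both genotypes at 0 h, 0 for the first dark hour and for the change of the light effect, 1 for light at 1 h over both genotypes, and 2 for 0 to 4 h in the dark and in the light. In batch 2 alone it became 0 for light in WT at 1 h, in LiTEC at 0 h and for the first dark hour, and 1 for light at 1 h over both genotypes. With the compared groups only, it became 0 for light in WT at 1 h and in LiTEC at 0 h, Ccng1 was lost from 0 to 4 h in the dark and Ccng1 was gained for LiTEC minus WT (adjusted p 0.0470, edgeR). Batch 2 alone also lost Ccng1 in the dark and Phlda3 in the light from 0 to 4 h, and gained Trp53cor1 in the dark over that time. With the replicate block it became 2 for light in WT at 1 h (Mdm2 and Btg2) and 2 at 0 h over both genotypes (Aen and Trp53cor1); beside the Ccng1, Trp53 and Trp53cor1 values given with their results, the pairing changed no other call. Leaving out 1 library at a time gave 0 to 1 called genes for light in WT at 1 h, 0 to 1 for light in LiTEC at 0 h, 0 to 1 for the first dark hour, and 1 to 2 for the change of the light effect. Fewer libraries enter the fit in batch 2 alone and in the compared groups. The cause of the differences between settings was not tested.

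Counts over all genes moved more. Across the alternatives other than left-out libraries, genes called for light ran from 141 to 870 (520 as reported) in WT at 0 h, 11 to 111 (52) at 1 h and 0 to 113 (0) at 4 h, and in LiTEC cells from 5 to 290 (170), 7 to 60 (21) and 0 to 36 (2). Over both genotypes they ran from 295 to 1332 (977), 39 to 460 (208) and 3 to 197 (50). For the first dark hour the range was 41 to 526 (239), for 0 to 4 h in the dark 1210 to 3835 (2814), in the light 928 to 3351 (2448), and for the change of the light effect 63 to 320 (208). For the difference of light effects between genotypes it was 0 to 31 (4), 0 to 4 (0) and 0 to 16 (0). Trp53cor1, with 37 to 215 counts per library, had the widest intervals of the 10 genes.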
